A study of Homo sapiens with 12 samples.

Results

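The nuclear-encoded subunits of the respiratory chain and of the ATP synthase were followed as messenger RNAs in Argonaute 2 precipitates of K562 cells, a human erythroleukemia line. The respiratory chain sits in the inner mitochondrial membrane. Complex I takes electrons from NADH and complex II from succinate, complex III passes them to cytochrome c, complex IV hands them to oxygen, and complex V (the ATP synthase) uses the resulting proton gradient to make ATP. Most subunits are encoded in the nucleus, translated in the cytosol and imported, while a small set is encoded by mitochondrial DNA and translated inside the organelle. Argonaute 2 (AGO2) is the protein that holds a microRNA on its target transcripts in the cytosol, so that a precipitate made with an AGO2 antibody is used to find transcripts under microRNA control.

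The members were chosen by gene name: NDUFA, NDUFB, NDUFC, NDUFS and NDUFV for complex I, SDHA to SDHD for complex II, UQCR for complex III, COX4I to COX8 for complex IV, and ATP5 for complex V, without names that end in P and a number. This gave 85 genes in 100 of the 61782 gene rows. The 15 rows beyond 1 per gene were further rows of NDUFA10, NDUFA3, NDUFA6 and COX8C, were at 0 in every group, and were set aside. Complex I had 37 genes, complex II 4, complex III 8, complex IV 17 and complex V 19. A row of its own was found for 67 genes, and 18 genes shared a row with overlapping genes, so that their value cannot be given to the subunit alone and is reported separately. At least 1 FPKM in some group was reached by 60 of the 67 genes with a row of their own and by 77 of all 85. A few names take in genes that are not structural subunits of the complex they are named after. The product of NDUFA4 is found in complex IV, COX7A2L takes part in joining complexes III and IV, and ATP5S, ATP5SL and ATP5L2 are named like subunits of the ATP synthase. ATP5J2LP is annotated as a processed pseudogene, but its name ends in P without a number, so it was kept and counted. Cytochrome c1 (CYC1) is not reached by the name rule.

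The cells had been infected with pLV-miR-143 or with pLV-control, lentiviruses with and without the microRNA, and selected with puromycin. The methods of the study name them as K562-C/EBPα-ER, a line that also carries an inducible form of the granulocytic factor C/EBPα. From each cell population, RNA was precipitated with an AGO2 antibody (AGO) and, as a mock precipitate, with an unspecific immunoglobulin G (IgG). The sample titles give 12 samples in 4 groups of 3, called here control IgG, control AGO, miR-143 IgG and miR-143 AGO. Each group was deposited as 1 table with a single averaged value per row in FPKM, the fragments of a gene scaled to its transcript length and to the size of the library. The spread between replicates is therefore unknown, no test was possible, and every difference below is a ratio of averages, written as log2((FPKM + 1)/(FPKM + 1)). Rows were compared where any of the groups in the ratio reached 1 FPKM. A row was counted as higher or lower when this ratio reached 2-fold.

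The erythroid factors GATA1 and KLF1 were present in every group, with GATA1 between 52.0 and 73.2 FPKM, and the lymphoid markers CD3E and MS4A1 were at 0 throughout. The row of MIR143 held 44781 FPKM in miR-143 IgG and 118393 FPKM in miR-143 AGO, and was listed at 0 without the vector. Depth was not given. The lowest values above 0 (FPKM multiplied by transcript length, relative to miR-143 AGO) were 13.5 in control IgG, 1.17 in control AGO and 1.76 in miR-143 IgG, so control IgG had the coarsest low values. Of 8580 coding rows, 26.6% were listed at 0 in control IgG, against 7.35% in control AGO, 8.90% in miR-143 IgG and 5.58% in miR-143 AGO. Of the 60 respiratory chain genes, 5 were listed at 0 in control IgG, 2 in control AGO, 0 in miR-143 IgG and 1 in miR-143 AGO. As genes that every cell uses were among them, a 0 is given below only as listed. The counts and medians keep such rows, with the added FPKM of 1, and are also given over rows above 0 in every group of the ratio, a setting added after the data had been seen.

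The mature miR-143-3p and the sites for its seed are shown here because miR-143 is the microRNA that the vector adds. The sequence is that of RefSeq (GRCh38.p14, chr5:149428978-149428998, plus strand), with the seed, bases 2 to 8, in capitals.
miR-143-3p: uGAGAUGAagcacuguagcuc
The longest annotated 3′ UTR of each gene (GENCODE 29, GRCh38) was searched on the transcript strand for the 8mer TCATCTCA and for its shorter forms, the 7mer-m8 TCATCTC and the 7mer-A1 CATCTCA, each position being counted once as its longest form. A match was present in 13 of 84 members with an annotated 3′ UTR (15.5%), against 3975 of 17912 coding rows (22.2%). The members include joined rows and the coding rows do not. The members also have shorter 3′ UTRs, as given below, and the part of UTR length in these shares was not tested. The members with a match were NDUFA9, NDUFA10, NDUFB5, NDUFS1, NDUFV2 and NDUFV3 of complex I, SDHC of complex II, UQCRB of complex III, COX4I1, COX7A2L, COX7B and COX7C of complex IV, and ATP5E of complex V. The 8mers, the longest form searched, are printed below with the 7mer-m8 sites of genes with a row of their own, with 10 flanking bases on each side and the matched bases in capitals.
COX4I1, 8mer, chr16:85805987-85805994, plus strand: attccagagtTCATCTCAggattgtttc
NDUFA9, 8mer, chr12:4689264-4689271, plus strand: ctaacttgtaTCATCTCAggatgctgta
NDUFA9, 8mer, chr12:4690380-4690387, plus strand: ggccttaagaTCATCTCAcattcttcat
NDUFA10, 7mer-m8, chr2:239960303-239960309, minus strand: atttctttatTCATCTCtgttgaagcc
NDUFS1, 7mer-m8, chr2:206115360-206115366, minus strand: tgtgacctaaTCATCTCccagaaggct
SDHC, 7mer-m8, chr1:161373781-161373787, plus strand: ttcttctttaTCATCTCtgtttctcac
COX7A2L, 7mer-m8, chr2:42350693-42350699, minus strand: gttatttgccTCATCTCctatctttag
All of these positions lie in 3′ UTRs. The COX4I1 match lies in the 3′ UTR of a transcript that is not the principal isoform. The same holds for the matches of NDUFB5 and NDUFV2, which are not printed. The NDUFA9 matches belong to a gene whose row was joined with its neighbours.

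Respiratory chain transcripts were among the abundant messages of these precipitates. No input or total RNA is among the samples, so their level in the cells is not known. Their median level was 74.2 FPKM in control IgG and 52.7 FPKM in miR-143 IgG, where the median of 8580 coding rows was 3.65 and 4.25 FPKM. In the AGO precipitates the median of the members was 21.9 FPKM in control cells and 23.3 FPKM in miR-143 cells, while that of the coding rows was 3.37 and 3.98 FPKM. Summed over the 60 genes, the members made up 2.51% of the coding FPKM in control IgG and 1.52% in control AGO, and 2.93% in miR-143 IgG and 1.76% in miR-143 AGO. Both AGO precipitates thus held a smaller share of these messages than the mock precipitate of the same cells. The sum in AGO was 0.418 times that in IgG in control cells, and 0.421 times with miR-143.

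**Figure D1:**
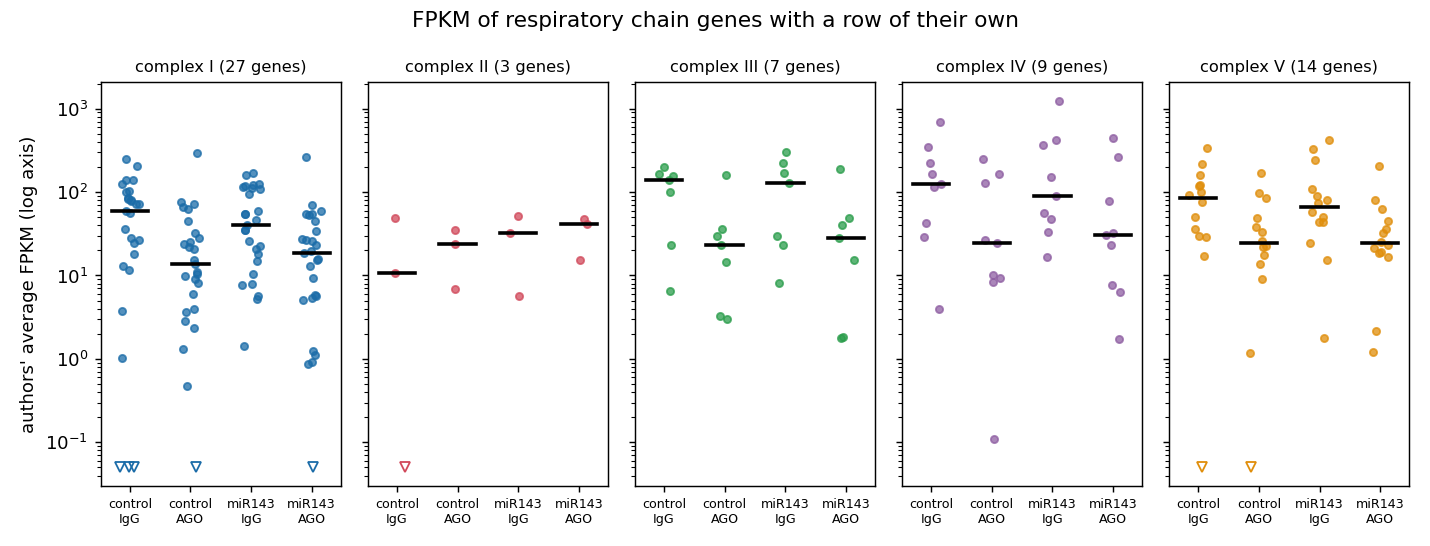
Authors' average FPKM (log axis) of the 60 genes with a row of their own in each of the 4 groups, by complex; points are genes, black lines medians, and open triangles at the foot genes listed at 0. The medians of complexes I, III, IV and V are lower in AGO than in IgG in both cell populations (in control cells, 59.2 against 13.7 FPKM for complex I and 141 against 23.3 FPKM for complex III).

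By complex, the ratio of the summed FPKM in AGO to that in IgG was 0.481 in control and 0.536 in miR-143 cells for complex I, 0.343 and 0.369 for complex III, 0.362 and 0.368 for complex IV, and 0.421 and 0.374 for complex V. For the 3 measured genes of complex II it was 1.09 and 1.16. These sums leave out joined rows, and with them the differences were smaller. All members then summed to 8732 FPKM in control IgG and 5000 in control AGO. They summed to 9932 FPKM in miR-143 IgG and 6366 in miR-143 AGO. In the same order of groups, complex IV summed to 2398, 1863, 3622 and 2455.5 FPKM. Complex II summed to 72.7, 74.6, 155 and 122 FPKM. The highest mean levels in their complex among rows of their own were those of COX6B1 of complex IV, ATP5B, the catalytic β subunit of the ATP synthase, NDUFB7 of complex I, UQCRC1, a core protein of complex III, and SDHA, the flavoprotein of complex II.

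To ask whether these messages were recovered with AGO2 beyond the mock precipitate, AGO was set against IgG gene by gene. In control cells 36 of 59 members were lower in AGO and 8 were higher, with a median log2 ratio of -1.86. Over all 9919 rows compared, 36.2% were lower and 34.5% higher, with a median of -0.19, and over the 7478 coding rows 34% were lower and 34.1% higher. In miR-143 cells 41 of 60 members were lower and 4 were higher, with a median of -1.57. There, 33.5% of all 10643 rows were lower and 26.6% higher (median -0.22), and 30.7% of the 7914 coding rows were lower and 26.3% higher. The ratios of the 2 cell populations share no library.

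A total of 30 members were lower in AGO in both cell populations, which is 50.8% of the 59 compared, 83.3% of those lower in control cells and 73.2% of those lower in miR-143 cells. Of 6812 coding rows 15.2% were lower in both, and the shares of the lower rows were 46.9% and 53.5%. NDUFV3 and SDHC were counted as higher in both (15.1% of coding rows), and 5 members as higher in control and lower in miR-143 cells, where 9.62% of coding rows went in opposite directions. NDUFV3, SDHC, NDUFA8 and NDUFS4 among these were listed at 0 in control IgG. Of the 53 members above 0 in all groups, 28 were lower in both (52.8%), 0 were higher in both, and 3 (5.66%) went in opposite directions. The shares of 5394 coding rows above 0 in all groups were 17.2%, 10.4% and 6.49%. Across the 59 members Pearson's r between the log2 ratios of both populations was 0.53 and Spearman's rho 0.50, against 0.41 and 0.41 across the coding rows. These correlations are across genes, which share length, base composition and library within each ratio, and are given as a description. The 30 genes came from complex I (12 of 27), complex III (4 of 7), complex IV (6 of 9) and complex V (8 of 13), and none from complex II.

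**Figure D2:**
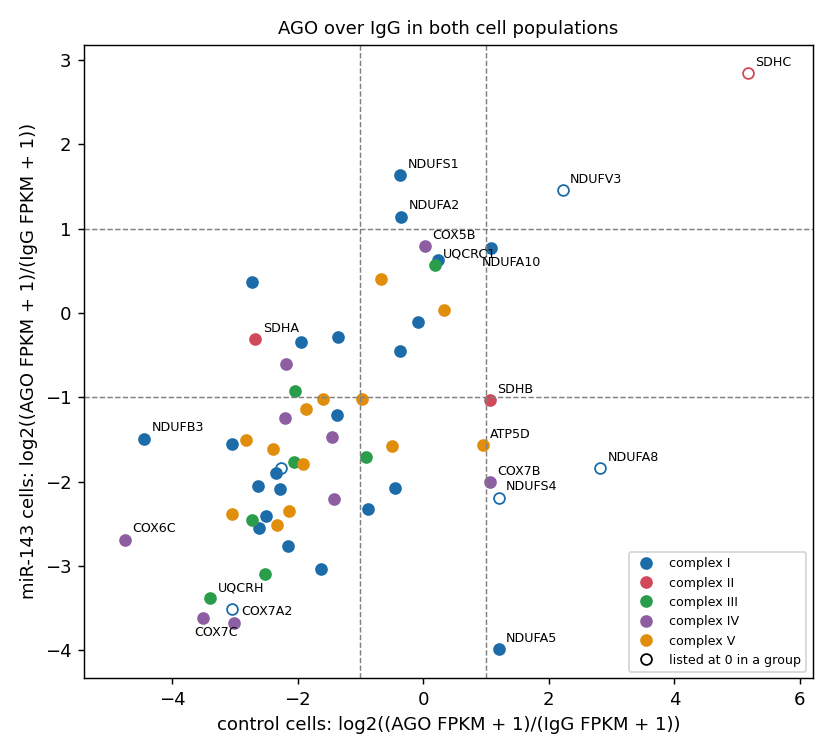
Each point is a gene with a row of its own, placed by its log2 AGO/IgG ratio in control cells (horizontal axis) and miR-143 cells (vertical axis), coloured by complex; dashed lines mark 2-fold and open points are genes listed at 0 in any group. Of the 59 genes, 30 lie beyond 2-fold in the lower left field and 2 in the upper right field.

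Some of these ratios rest on a value of 0. Of the 8 members higher in control AGO, NDUFA8, NDUFS4, NDUFV3 and SDHC were listed at 0 in control IgG, and NDUFA1 was listed at 0 in control AGO. Without these 5 genes, 35 of 54 members were lower and 4 higher, with a median of -1.94, against 38.6% lower and 20.7% higher of 5868 such coding rows (median -0.55). In miR-143 cells only NDUFB6 was listed at 0, in AGO, and without it 40 of 59 were lower and 4 higher (median -1.57), against 29.9% lower and 23.1% higher of 7235 such coding rows (median -0.19).

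The nuclear-encoded part of complex I has 7 core subunits and a large set of accessory subunits. The 7 core subunits carry the NADH site, the flavin and the iron-sulfur clusters. Of the 27 genes of complex I compared, 15 were lower and 5 higher in control AGO (median -1.37). In miR-143 AGO 17 were lower and 3 higher (median -1.84). NDUFS8, a core iron-sulfur subunit, was at 203 FPKM in control IgG, 23.7 in control AGO, 160 in miR-143 IgG and 54.1 in miR-143 AGO, lower in AGO in both populations. NDUFV1, which binds the flavin and NADH, had 77.3, 72.8, 59.4 and 55.1 FPKM and thus differed little between any of the groups. Where 4 values are listed without names, here and below, they stand for control IgG, control AGO, miR-143 IgG and miR-143 AGO. NDUFS1, the largest core subunit, was at 17.9, 13.7, 5.26 and 18.5 FPKM. NDUFS7 was at 101, 25.3, 35.0 and 27.4 FPKM with log2 ratios of -1.95 and -0.34, lower past 2-fold in control cells alone. Over the 5 nuclear-encoded core genes with a row of their own the median log2 ratio was -1.95 in control and -0.11 in miR-143 cells.

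The 21 accessory subunits of complex I with a row of their own had medians of -1.36 in control and -1.90 in miR-143 cells, with 11 and 15 lower. NDUFB7 was the most abundant and stayed at a like level in all groups, at 250, 296, 169 and 261 FPKM. NDUFS5 was at 72.3 FPKM in control IgG, 10.9 in control AGO, 93.9 in miR-143 IgG and 15.2 in miR-143 AGO, and its log2 ratios of -2.62 and -2.55 were nearly equal. NDUFB11 (-2.50 and -2.41), NDUFB9 (-2.62 and -2.05) and NDUFB5 (-2.35 and -1.90) were lower in AGO by similar amounts in both populations. The largest difference among them in control cells was that of NDUFB3, with 83.4 FPKM in control IgG and 2.87 in control AGO, past 10-fold, but 18.1 and 5.79 FPKM in miR-143 cells. NDUFB6 was at 26.5 and 2.34 FPKM in control cells, and at 10.4 FPKM in miR-143 IgG while listed at 0 in miR-143 AGO. NDUFA5 was at 11.6, 28.1, 34.7 and 1.25 FPKM, higher in AGO in control cells (1.20) and past 10-fold lower with miR-143 (-3.99). NDUFA8 (listed at 0, then 6.05, 21.0 and 5.13 FPKM) and NDUFS4 (listed at 0, then 1.30, 7.79 and 0.929 FPKM) were lower in AGO with miR-143. NDUFV3 was listed at 0 in control IgG and held 3.66, 1.43 and 5.68 FPKM in the others, higher in AGO with miR-143. NDUFA10 had more in AGO in both populations, at 35.9 and 76.8 FPKM in control and 40.1 and 69.0 FPKM in miR-143 cells, although the ratio passed 2-fold in control cells only.

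Complex II is encoded wholly in the nucleus and is also an enzyme of the TCA cycle. Its genes did not move together. SDHA had 49.4 FPKM in control IgG, 6.90 in control AGO, 51.2 in miR-143 IgG and 41.2 in miR-143 AGO, so that control AGO alone was low. SDHB, the iron-sulfur subunit, was at 10.8, 23.6, 32.2 and 15.3 FPKM, higher in AGO in control cells (1.06) and lower in miR-143 cells (-1.03). SDHC, a membrane anchor (chr1:161314257-161375340, plus strand), was listed at 0 in control IgG and at 35.2 FPKM in control AGO, and had 5.73 FPKM in miR-143 IgG and 47.2 in miR-143 AGO, a log2 ratio of 2.84 in the latter cells. This ratio was the highest of the genes with a row of their own. Its annotated principal transcript of 13566 nucleotides, with a 3′ UTR of 12907 nucleotides, was also the longest of the 60. SDHD, the other anchor, shared its row with BCO2, TEX12 and AP002884.2 (12.5, 8.90, 65.7 and 17.9 FPKM).

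In complex III 5 of 7 genes were lower in AGO in control cells (median -2.06) and 5 of 7 with miR-143 (median -1.77), and none was higher in either population. UQCRH, the hinge protein, was at 164 FPKM in control IgG, 14.7 in control AGO, 304 in miR-143 IgG and 28.2 in miR-143 AGO, past 10-fold in both populations (-3.39 and -3.38). The small subunit UQCRQ was at 202, 29.8, 225 and 40.3 FPKM, and UQCR10 at 154, 36.2, 170 and 49.2 FPKM. UQCRB was at 23.4, 3.24, 23.0 and 1.82 FPKM. These 4 genes were lower in AGO than in IgG in both populations. UQCRC1 was the exception among the large core proteins, with 141, 161, 128 and 192 FPKM and ratios of 0.19 and 0.57. The other core protein, UQCRC2, was at 99.4 and 23.3 FPKM in control cells and at 29.5 and 15.1 FPKM in miR-143 cells. The Rieske iron-sulfur protein UQCRFS1 was low in every group, at 6.596, 3.02, 8.17 and 1.80 FPKM.

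Complex IV holds its catalytic core in mitochondrially encoded subunits, and several of its nuclear subunits come as a common and a tissue-specific isoform. Of the tissue isoforms, COX4I2, COX6A2, COX7A1, COX7B2 and COX8C were listed at 0 in every group, as was COX6B2, whose row was joined with FAM71E2 and CTD-2105E13.6. The common isoform COX6B1 reached 683, 250, 1245 and 451 FPKM, the highest mean level of the genes with a row of their own. COX4I1 was at 345, 129, 366 and 78.2 FPKM, COX7A2 at 220, 26.4, 426 and 32.5 FPKM, and COX7B at 3.98, 9.38, 33.6 and 7.60 FPKM. COX6B1, COX4I1 and COX7A2 were lower in AGO in both populations, COX7A2 past 10-fold with miR-143, and COX7B in miR-143 cells only, being higher in AGO in control cells (1.06). Of 9 genes of complex IV compared, 7 were lower in control AGO (median -2.19) and 7 in miR-143 AGO (median -2.01). COX6C had the lowest ratio of all members in control cells (-4.76), with 28.96 FPKM in IgG and 0.109 in AGO, and was at 16.6 and 1.73 FPKM in miR-143 cells. COX7C was at 124, 10.0, 88.6 and 6.32 FPKM, past 10-fold in both populations. COX5B differed from these, with 163, 166, 151 and 263 FPKM, and was not lower in AGO in either population.

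Complex V consists of the catalytic F1 head, a ring of c subunits in the membrane, and the stalks that join them. In control cells 8 of 13 genes were lower in AGO (median -1.86) and in miR-143 cells 11 of 14 (median -1.54), and none was higher in either. ATP5B was at 333, 169, 420 and 207 FPKM, with ratios of -0.97 and -1.02 on either side of 2-fold. The α subunit ATP5A1 was at 122, 32.9, 80.0 and 35.9 FPKM, and the γ subunit ATP5C1 at 92.8, 17.7, 110 and 18.3 FPKM. The ε subunit ATP5E was at 17.0, 1.18, 15.5 and 2.17 FPKM. All 3 were lower in AGO in both populations. The δ subunit ATP5D stood apart, at 50.4 FPKM in control IgG and 98.0 in control AGO but 57.9 in miR-143 IgG and 18.9 in miR-143 AGO. Of the 3 genes that encode the same c subunit, ATP5G1 was at 119, 84.0, 242 and 80.2 FPKM and ATP5G3 at 101, 26.0, 89.3 and 25.1 FPKM, while ATP5G2 was joined with RP11-972K6.1. In the stalks and membrane part, ATP5I (217, 48.5, 326 and 63.3 FPKM), ATP5F1 (76.1, 13.6, 73.7 and 23.4 FPKM) and ATP5L (162, 22.0, 49.6 and 16.7 FPKM) were lower in AGO in both populations. ATP5J, a coupling factor of the stalk, was level at 30.0, 38.1, 44.1 and 45.0 FPKM. The pseudogene ATP5J2LP was listed at 0 in every group, and ATP5L2 only reached 0.459 FPKM, in miR-143 AGO.

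The members have short transcripts, and the AGO/IgG ratio also varied with transcript length over all genes. The median transcript length, taken over principal isoforms, was 916 nucleotides for the 67 members with a row of their own. It was 2982 for the 8580 coding rows that reached 1 FPKM in some group. The 67 include members below 1 FPKM, so these sets were not filtered alike. The median 3′ UTR was 416 against 1358 nucleotides. Coding rows of up to 700 nucleotides had median log2 ratios of -1.68 in control and -1.63 in miR-143 cells. Those of 700 to 1200 nucleotides had -0.99 and -0.85, and those above 3500 had 0.17 and 0.03. The members of up to 700 nucleotides had medians of -1.59 and -2.07 (15 genes), and those of 700 to 1200 had -1.94 and -1.82 (20 genes). From 1200 to 2000 nucleotides they had -0.82 and -1.76 (10 genes), where coding rows had -0.41 and -0.27. From 2000 to 3500 they had -2.24 and -0.76 (8 genes), where coding rows had -0.01 and -0.08. Above 3500 nucleotides their medians were 0.36 (6 genes) and 0.77 (7 genes), with SDHC and NDUFV3 listed at 0 in control IgG among them. Among coding rows of up to 1200 nucleotides with a mean above 20 FPKM, 362 in number, the medians were -1.48 and -1.31, and the 29 members in that class had -1.92 and -1.58. Short, abundant messages in general were thus lower in AGO as well, and the part of length in the members' ratios was not tested.

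**Figure D3:**
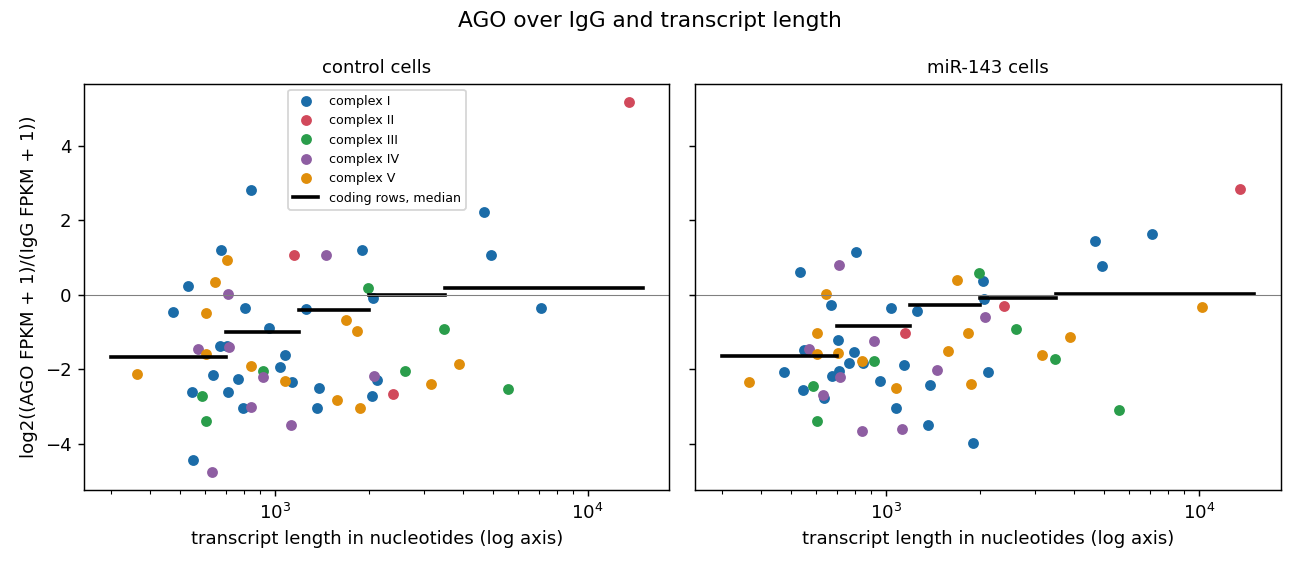
Log2 AGO/IgG ratio against transcript length in nucleotides (log axis) in control cells (left) and miR-143 cells (right); points are the respiratory chain genes by complex, and black bars the median of all coding rows in 5 length classes. The bars run from -1.68 to 0.17 in control cells and from -1.63 to 0.03 in miR-143 cells, and most genes below 1200 nucleotides lie below 0.

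Other groups of genes put these values in context. The 59 and 60 cytosolic ribosomal protein genes compared, also short and abundant, had median ratios of -2.40 and -2.16. Mitochondrial ribosomal proteins had -0.74 and -0.86. Of the subunits encoded by mitochondrial DNA, 8 had a row of their own (MT-ND1, MT-ND2, MT-ND3, MT-ND5, MT-ND6, MT-CYB, MT-CO1 and MT-CO2), and 7 of 8 were lower in AGO in each population, with medians of -2.06 and -2.84. Assembly factors, which build the complexes without being part of them, had 16 of 33 lower and 9 higher in control cells (median -0.80), and 13 of 34 lower and 5 higher in miR-143 cells (median -0.54). Enzymes of the TCA cycle had medians of -0.40 and -0.65, over 11 genes. Regulators of mitochondrial biogenesis had medians of 0.42 over 5 genes and -0.95 over 8. Cytochrome c (CYCS) was at 94.1, 23.6, 63.7 and 79.4 FPKM, and CYC1 at 95.0, 47.4, 135 and 55.3 FPKM. No difference between these groups was tested.

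The comparison of miR-143 with control cells in the AGO precipitates shows which transcripts were higher or lower there with miR-143. Without input RNA, a change in AGO2 binding cannot be told apart from a change in transcript level. Here 9 of 59 members were higher with miR-143 and 5 lower, with a median log2 ratio of 0.29, while of 9798 rows 17.7% were higher and 14.1% lower, with a median of 0.17. The members' shares, 15.3% and 8.47%, were thus near to or below those of all rows. Without ATP5S and NDUFB6, each listed at 0 in an AGO group, 8 of 57 members were higher and 4 lower, against 13.8% and 11.4% of 7111 such coding rows. By complex the medians were 0.17 for complex I, 0.41 for II, 0.25 for III, 0.32 for IV and 0.26 for V. No member was 10-fold higher with the added FPKM of 1. COX6C, with 0.109 and 1.73 FPKM, had a log2 ratio of 1.30, which became 3.13 with 0.1 and 3.87, past 10-fold, with 0.01 added instead. The highest ratio was that of SDHA (2.42), followed in complex I by NDUFB4, with 10.3 FPKM in control AGO and 44.5 in miR-143 AGO (2.01). COX5A had 8.36 and 23.1 FPKM (1.37), ATP5H 8.96 and 21.3 FPKM (1.16), and UQCRH, the highest of complex III, did not reach 2-fold (0.90). Past 10-fold lower was NDUFA5, an accessory subunit of complex I (chr7:123536997-123558255, minus strand), with 28.1 FPKM in control AGO and 1.25 in miR-143 AGO (-3.70). ATP5D was next, with 98.0 and 18.9 FPKM (-2.32). The lowest of the other complexes were SDHB (-0.59), UQCRC2 (-0.59) and COX4I1 (-0.71).

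In the mock precipitates, 11 of 60 members were higher with miR-143 and 9 lower (median 0.14), where 36.2% of all 10172 rows were higher and 26.8% lower (median 0.17). The 5 nuclear-encoded core genes of complex I with a row of their own were all on the lower side (median -1.49). Of these, 3 were past 2-fold, among them NDUFS1 (-1.59) and NDUFS7 (-1.49). The other nuclear-encoded core subunits, in joined rows, were not lower (NDUFV2 1.45 and NDUFS3 0.03). SDHC, NDUFA8, NDUFS4, NDUFV3 and ATP5S were listed at 0 in control IgG and above 0 in miR-143 IgG, NDUFA8 at 21.0 FPKM. Without them 6 of 55 members were higher and 9 lower (median 0.05), against 20.1% and 27.9% of 5817 such coding rows (median -0.19). Of the genes above 0 in both groups COX7B had the highest ratio, with 3.98 and 33.6 FPKM (2.80). Across the 59 members compared in both, Pearson's r between the AGO ratios and the IgG ratios was 0.00074 and Spearman's rho 0.10, given as a description, and these comparisons share no library.

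**Figure D4:**
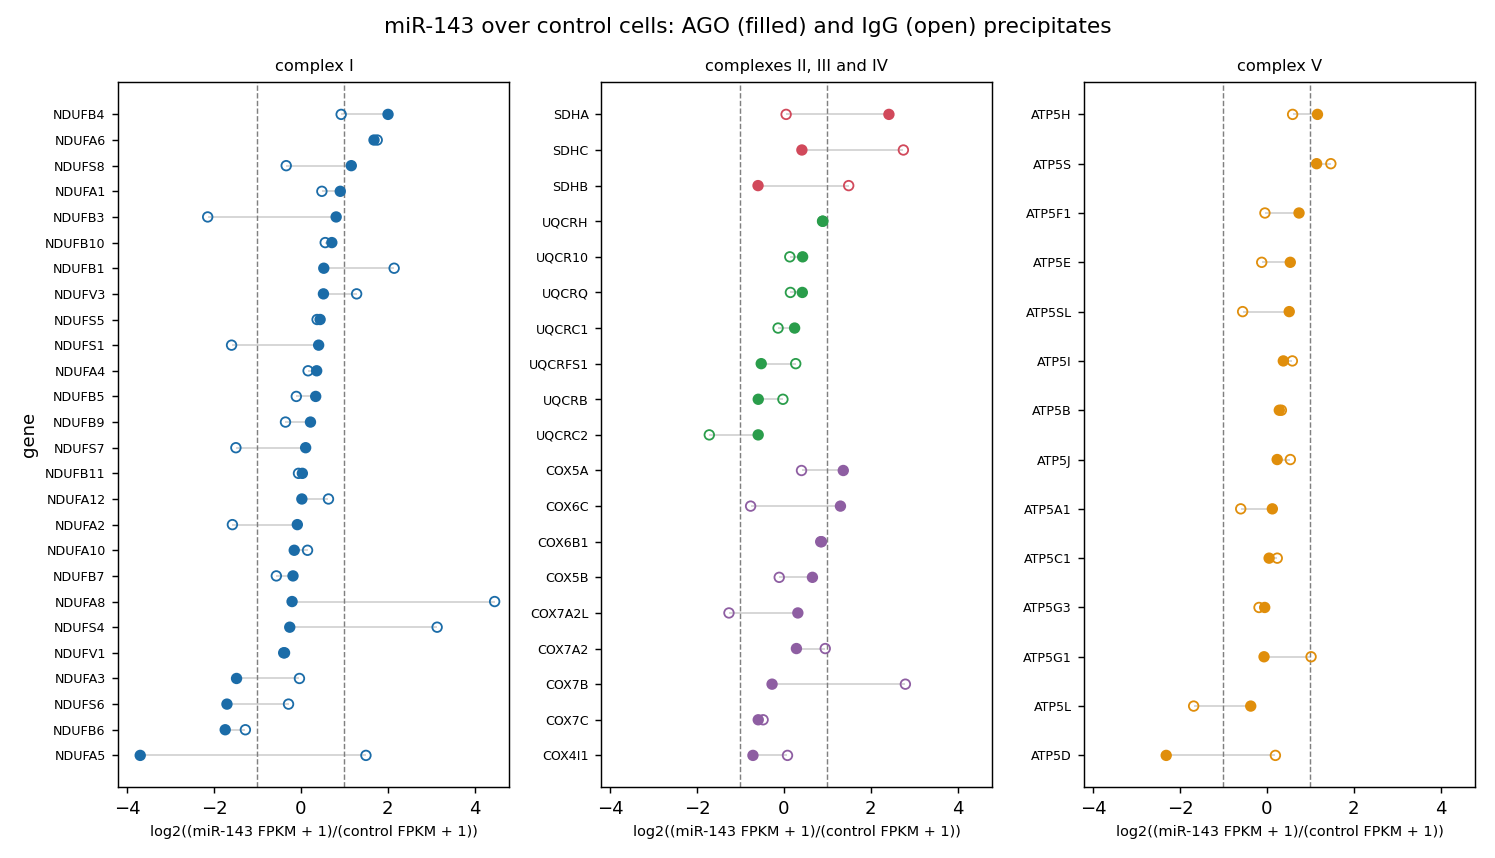
Log2 ratio of miR-143 over control cells for genes with a row of their own, in the AGO precipitates (filled points) and in the IgG precipitates (open points), coloured by complex; dashed lines mark 2-fold and grey lines join the points of a gene. NDUFA5 (-3.70), ATP5D (-2.32) and SDHA (2.42) have the most distant filled points, and the open points of the 5 genes listed at 0 in control IgG rest on the added FPKM of 1.

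When the AGO/IgG ratio of the miR-143 cells was divided by that of the control cells, 13 of 60 members were higher and 11 lower (median 0.08), against 29% and 33.5% of 11914 rows (median -0.09). This value uses all 4 groups and so shares libraries with each comparison above. Over rows above 0 in all groups 13 of 53 members were higher and 8 lower (median 0.15), against 31.7% and 22.1% of 5693 coding rows. The members' median turned to -0.37 when the groups were scaled to the same median, while that of all rows was then -0.42. Among the nuclear-encoded core subunits of complex I with a row of their own, 4 of 5 were higher by this measure (median 1.60). NDUFS1, at 2.00, and NDUFS7, at 1.60, were among them. For NDUFS1 and NDUFS7 the IgG ratios given above were the larger part of this measure. The joined rows of NDUFV2 (-1.76) and NDUFS3 (-0.81) had values below 0.

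The seed sites were set beside the AGO ratios. Between the AGO precipitates the median log2 ratio was 0.32 over the 11 members with both a row of their own and a site, and none passed 2-fold in either direction. The 48 members without a site had a median of 0.27, with 9 higher and 5 lower. Over coding rows the medians were 0.23 with a site (1809 rows) and 0.14 without (5561 rows). COX4I1, the only such gene with an 8mer, was lower with miR-143, at 129 and 78.2 FPKM. NDUFS1 (0.41), SDHC (0.41) and COX7A2L (0.32), which hold a 7mer-m8, were slightly higher, and NDUFA10 (-0.15) was slightly lower. The joined row of NDUFA9, a gene with 8mers, was at 20.5 FPKM in control AGO and 39.5 in miR-143 AGO. NDUFA5, NDUFB4, SDHA and ATP5D, the members with the largest ratios, hold no site in the UTRs searched.

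The 18 joined members are given with their rows. COX6A1 (joined with GATC and AL021546.6) had the highest value of any of the 85 genes, at 290, 1060, 468 and 1383 FPKM in control IgG, control AGO, miR-143 IgG and miR-143 AGO, and NDUFB2 (with ADCK2) was at 58.3, 525, 70.3 and 620 FPKM. Both rows were higher in AGO in both populations. COX8A (with OTUB1 and AP000721.4) was lower in AGO, at 384, 179, 724 and 179 FPKM, as was NDUFC2 (with KCTD14 and NDUFC2-KCTD14), at 174, 11.02, 171 and 26.8 FPKM. NDUFB8, NDUFA13 and UQCR11 were lower in both populations too, with ratios of -3.12 and -2.47, -3.07 and -2.48, and -1.68 and -1.38, and so was ATP5O, the stalk protein OSCP (-2.08 and -1.07). NDUFA11 (-2.30 and -0.42) and ATP5G2 (-1.95 and -0.88) passed 2-fold in control cells only. NDUFV2 (-0.12 and -1.88), NDUFS3 (-0.75 and -1.56) and SDHD (-0.45 and -1.82) passed it in miR-143 cells only. NDUFA9 (0.48 and 2.46) and NDUFC1 (0.65 and 1.93) were higher in AGO in miR-143 cells, and NDUFA7 (0.23 and 0.85) and ATP5J2 (-0.84 and 0.18) did not pass 2-fold. With the joined rows counted, 44 of 76 members were lower and 10 higher in control AGO, against 36.2% and 34.5% of all rows. In miR-143 AGO 50 of 77 members were lower and 8 higher, against 33.5% and 26.6% of all rows.

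Many of these genes have processed pseudogenes, between which reads of near-identical sequence can be split. Of 141 rows named as pseudogenes of members, 130 were at 0 in every group and 11 were not. COX7CP1 was higher than its parent, at 570, 172, 553 and 27.8 FPKM, so that the level of COX7C is uncertain. COX6A1P2 was at 54.3, 275, 59.0 and 434 FPKM, ATP5EP2 at 60.4, 6.06, 23.5 and 2.81 FPKM, and UQCRFS1P1 at 32.3, 0.0914, 6.42 and 1.43 FPKM. SDHAP1 and NDUFV2P1 reached at most 8.26 and 13.8 FPKM. NDUFA5P11 was listed at 0 in control IgG and miR-143 AGO and held 3.58 and 2.17 FPKM in control AGO and miR-143 IgG. SDHCP4 held 2.67 FPKM in control AGO and 5.10 in miR-143 AGO and was listed at 0 in both IgG groups, and ATP5LP2 held 1.19 FPKM in control AGO and 8.78 in miR-143 IgG. The values of COX6A1, ATP5E, UQCRFS1, SDHA, SDHC, SDHD, NDUFA5, NDUFV2 and ATP5L carry the same doubt.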

How the data were processed

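RNA from AGO and IgG precipitates of K562 cells was sequenced by the authors as paired-end reads. The study names a TruSeq kit and the labels a Ribo-Zero depletion with random priming. The deposited values are FPKM, averaged by the authors over the 3 samples of each group, from TopHat and Cufflinks. The submitters' processing notes give hg38. Versions and annotation were not given in the sources used here. FPKM depends on the whole library, so abundant RNAs lower all others. Strand use in counting was not stated.

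Rows were matched by name to GENCODE 29, 85 of 85 members, 18 through older symbols. Ratios used a pseudocount of 1 FPKM, which understates changes of low genes. They were computed in Python 3.11.15 (pandas 2.3.3, scipy 1.17.1) and checked on simulated data. With 1 average per group no test was run. There were 0 columns of other samples.

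Members and lists were chosen with earlier results of these data known. Genes were named by rule: the highest row per complex, the extremes of the AGO comparison, members past 10-fold, all of complexes II and III, isoform pairs, core and F1 subunits, joined and undetected members. Other genes were named after their values were seen. Alternatives were other pseudocounts (0.1 and 0.01), filters, scalings and joined rows, and, added after the data were seen, rows above 0 in every group. For 1 member single values are not reported here, and it is counted in the totals.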

Additional observations from a re-analysis of the deposited data

Results flagged for a closer look

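Among members above 0 in every group, 3 were past 2-fold in opposite directions in the 2 cell populations, higher in AGO than in IgG in control cells and lower in miR-143 cells. The difference of the log2 ratios, miR-143 minus control cells, was -5.19 for NDUFA5 (1.20 and -3.99), -3.07 for COX7B (1.06 and -2.01) and -2.09 for SDHB (1.06 and -1.03). With a single average per group the difference was not tested. These are 5.66% of the 53 members above 0 in all groups, and 6.49% of such coding rows also went in opposite directions. SDHB was within 2-fold in miR-143 cells under each scaling (-0.87 at the same median, -0.65 at the same upper quartile and -0.54 at the same coding sum), while NDUFA5 and COX7B stayed past 2-fold in both populations. NDUFA8 and NDUFS4 had the same directions but were listed at 0 in control IgG, so no difference is given.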

How the results depend on the processing

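Over 5 comparisons, 125 of 135 values computed under an alternative stayed within 1.5 times the count, or within 0.585 of the median log2 ratio, and 10 did not. The 125 include counts that could not change. Without the filter, the added rows were below 1 FPKM and could not reach 2-fold with 1 FPKM added. This holds for every comparison but the IgG-corrected ratio. With a mean of 5 FPKM or more, 5 of 53 members were higher in control AGO over IgG, against 24.1% of all rows. In miR-143 IgG over control IgG 6 of 54 members were higher, against 26.3% of all rows. Members higher in miR-143 AGO over IgG were 7 of 60 with the groups scaled to the same upper quartile, against 32.5% of all rows. With the same coding sum 8 of 60 members were higher, against 33.9% of all rows. With joined rows counted 8 of 77 members were higher, against 26.6% of all rows. By the IgG-corrected ratio, 8 of 60 members were higher at the same median, against 23.4% of all rows. With joined rows 20 of 77 members were higher by this ratio, against 29% of all rows. Rows above 0 in every group of the ratio were an alternative chosen after seeing the data. There, 4 of 54 members were higher in control AGO over IgG and 6 of 55 in miR-143 IgG over control IgG. Of all such rows 19.2% and 19.6% were higher. The members' median of control AGO over IgG was -1.21 at the same median, where that of all rows was 0.37. Scaling moved every ratio of AGO over IgG up by 0.17 to 0.67 on the log2 scale, and the members' medians stayed below 0 under each scaling. No alternative without a replicate could be run, as the tables hold averages only. No paired analysis was possible because the tables carry no values of single samples. The spread between replicates and the depth are unknown, and low values of control IgG are the coarsest.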
